A study of Homo sapiens with 12 samples.

Results

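The messenger RNA of 31 genes of fatty acid oxidation was described in HepG2, a cell line grown from a human liver tumour. The genes were taken by symbol from a list of enzymes, carriers and 1 regulator, and all 31 were found among the 62475 gene identifiers counted. The rule itself uses no measured value, but the list was chosen with earlier results of these data known. Of these, 17 code for mitochondrial proteins, 7 for peroxisomal proteins, and 7 act in both or elsewhere. The list holds no enzyme of ketone body synthesis, so ketogenesis is described from a neighbouring list. The 4 groups of 3 biological replicates were cells with HDAC1_S434A and H89, cells with HDAC1_S434A without H89, cells with WT HDAC1 and H89, and cells with WT HDAC1 without H89. HDAC1 is a class I histone deacetylase, S434A exchanges a serine for an alanine, and H89 is an inhibitor of protein kinase A (PKA). The sources used here do not say how the mutant cells were made, whether they are 1 clone, or at what dose and for how long H89 was given.

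Fatty acids are joined to coenzyme A by acyl-CoA synthetases. They enter mitochondria through the carnitine shuttle, and are then shortened in cycles of dehydrogenation, hydration, a second oxidation and thiolysis. Electron transfer flavoprotein carries the electrons of the first oxidation to the respiratory chain. Peroxisomes run a parallel pathway for very long and branched chains, with acyl-CoA oxidases in the first step. In liver the nuclear receptor PPARA, bound to DNA with RXR, drives many of these genes in fasting, and the acetyl-CoA formed feeds ketone body synthesis. PKA carries the cAMP signal of glucagon in the same state.

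Values are CPM, read counts scaled to equal library size, after scaling with TMM library factors. Fold changes are on the log2 scale with a standard error (SE), and a gene is called where the adjusted p of edgeR's quasi-likelihood test is under 0.05, without a fold limit. A 2-fold limit as in the series' own thresholds is given beside the counts. Library totals ran from 17562754 to 37187794 counts, and the 31 genes held 0.395 to 0.401% of them in S434A cells with H89, 0.388 to 0.450% in S434A cells without it, 0.383 to 0.400% in WT cells with H89 and 0.468 to 0.469% in WT cells without it. Both groups without H89 stood apart, WT cells by length trend and make-up and S434A cells by their spread. In S434A cells without H89 the biological coefficient of variation was 0.351, against 0.0556 in S434A cells with H89, 0.0775 in WT cells with H89 and 0.0197 in WT cells. Counts of a gene relative to the other libraries followed its GC content in these S434A libraries, with Spearman correlations over 14280 genes of 0.82, 0.72 and 0.13 in replicates 1, 2 and 3, against -0.45 to -0.065 in the other 9 libraries. The same correlation with gene length, over 14435 genes, was 0.42 to 0.44 in S434A cells with H89, -0.19 to -0.079 in S434A cells without it, 0.44 to 0.46 in WT cells with H89 and -0.43 to -0.42 in WT cells without it. Mitochondrially encoded messages held 5.57 to 5.94% of counts in S434A cells with H89, 3.16 to 7.02% in S434A cells, 4.91 to 6.26% in WT cells with H89 and 1.48 to 1.51% in WT cells. The share of ribosomal protein messages was 7.41 to 7.43% in S434A cells with H89, 8.86 to 10.8% in S434A cells, 6.87 to 7.26% in WT cells with H89 and 18.7 to 19.2% in WT cells, and the TMM factors were 1.07 to 1.10, 1.003 to 1.05, 1.05 to 1.08 and 0.832 to 0.845 in the same order. The part of this make-up in the results below was not tested. HDAC1 had 622, 680.3 and 552 CPM in S434A cells with H89, 713, 752 and 659 in S434A cells without it, 693, 665 and 732 in WT cells with H89 and 682, 704 and 679 in WT cells without it. It passed in no comparison in the fit used here, with log2 fold changes of -0.21 to 0.041, but did under some alternatives. With RLE factors it was -0.29 with H89 in S434A cells (adjusted p = 0.0112). With each library's GC and length trends removed it was 0.24 with H89 in WT cells and -0.31 for the difference of the H89 effects, S434A minus WT (adjusted p = 0.00761 and 0.0194). With only the groups compared in the fit, its value with H89 in WT cells was of the other sign, at -0.13 (adjusted p = 0.00692). The lowest adjusted p over the alternatives was 0.00402 with H89 in S434A cells, 0.0269 for S434A against WT without H89, 0.00273 for the difference and 0.361 for S434A against WT with H89. Counts per gene cannot show the exchanged base. All 10 hepatocyte markers reached 1 CPM in every group, with summed levels of 43883 to 44716 CPM in S434A cells with H89, 35569 to 56080 in S434A cells, 43224 to 47873 in WT cells with H89 and 74055 to 74755 in WT cells. Of the 5 blood markers LYZ alone reached 1 CPM, and it was high, at 1847 to 4454 CPM over the libraries. The blood markers PTPRC, HBB and CD3E were at 0 in all libraries. Of the 3 matched endothelial markers KDR was at 0 in all libraries, while VWF and CDH5 reached a mean of 1 CPM in every group. Of the 6 fibroblast markers PDGFRB alone did, with 17.7 to 39.6 CPM over the libraries. In bulk RNA, fewer cells of a kind and less RNA per cell cannot be told apart.

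**Figure D1:**
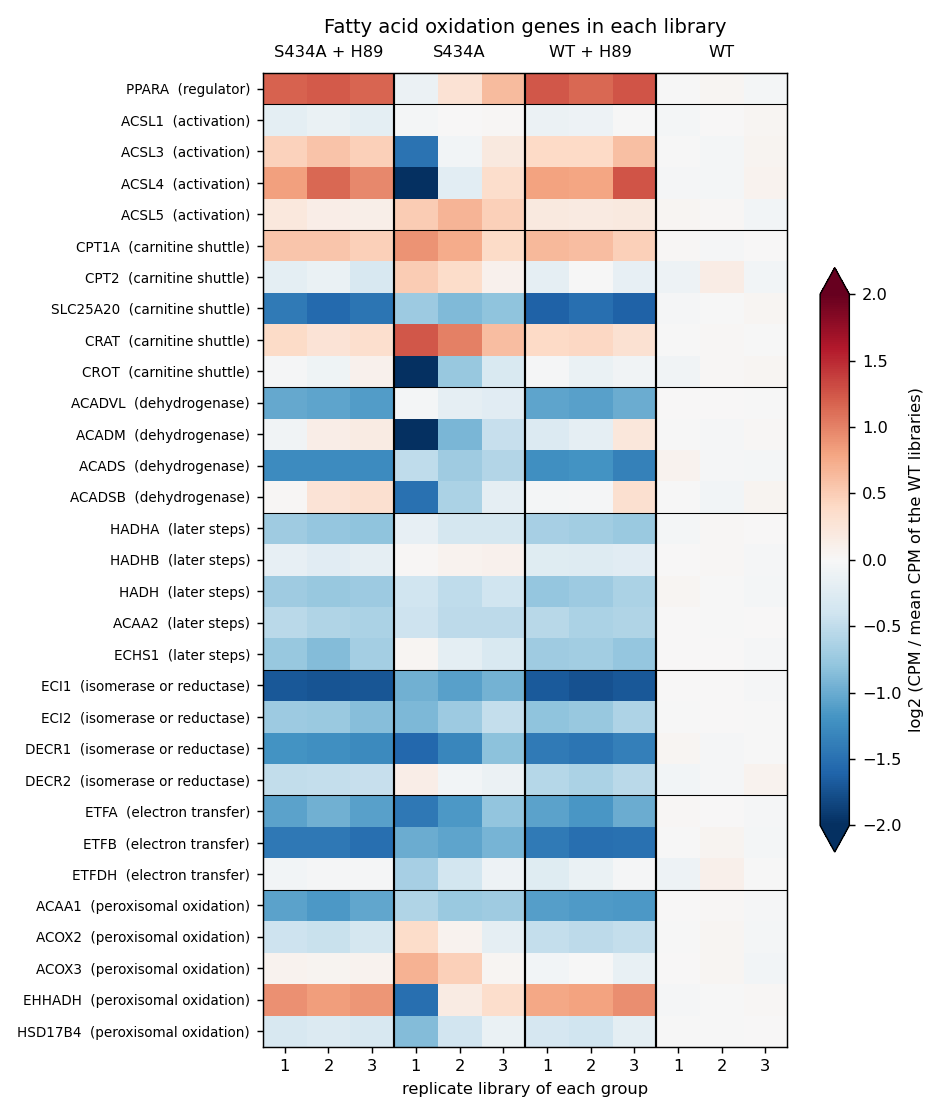
Each cell of the map is the log2 ratio of a gene's CPM in 1 library to its mean CPM in the 3 WT libraries, for the 31 genes (rows, by role) in 12 libraries (columns), with colours ending at -2 and 2. The 6 libraries with H89 look alike in both genotypes, and S434A replicate 1 without H89 is the lowest library for ACSL4, at 26.3 CPM, and for ACADM, at 5.38 CPM.

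H89 was followed by lower levels of most of the mitochondrial pathway in both genotypes. In S434A cells 16 of the 31 genes were lower with H89 and 5 were higher, where 22.7% and 29.3% of all 14435 tested genes were called in those directions. In WT cells 16 were lower and 5 higher, beside 30.9% and 38.8% of all genes. At 2-fold or more, 0 were lower and 2 higher in S434A cells (2.35% and 15.2% of all genes), and 8 were lower and 1 higher in WT cells (15.8% and 22.2%). The median log2 fold change of the 31 genes was -0.25 in S434A cells, where that of all genes was 0.014, and -0.31 in WT cells, where that of all genes was 0.20. The median of all genes depends on the scaling: with RLE factors it was -0.082 in S434A cells and 0.048 in WT cells, and 3 genes of the list were then higher and 18 lower in S434A cells, against 2 higher and 18 lower in WT cells. With RLE factors the split over all genes was 3566 higher and 4273 lower in S434A cells, against 4224 and 3280 with TMM.

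The genotypes share no library in the H89 comparison. Of the 16 genes lower with H89 in each genotype, 12 were lower in both, which is 75.0% of each list. Over all tested genes 2288 were lower in both, which is 69.8% of the S434A list and 51.2% of the WT list. The 12 genes were SLC25A20, ACADVL, ACADS, HADHA, HADHB, HADH, ECHS1, ECI1, DECR2, ETFB, ACAA1 and ACOX2. With the GC and length trends removed, ECHS1 and HADHB no longer passed in WT cells, nor DECR2 in S434A cells. Of the 5 higher in each, EHHADH and PPARA were higher in both, 40.0% of each list, beside 2618 over all tested genes, 62.0% of the S434A list and 46.8% of the WT list. ACSL5 and CRAT were higher with H89 in WT cells and lower with H89 in S434A cells. ACAA2, DECR1, ECI2 and ETFA were lower with H89 in WT cells and not called lower in S434A cells, and the reverse held for ACSL1, CPT2, ACSL5 and CRAT. These lists depend on the setting. With the GC and length trends removed, ACAA2, DECR1, ECI2 and ETFA were called lower in S434A cells too, and ACSL1 and CPT2 in WT cells. With RLE factors ACAA2 passed in S434A cells and ACSL1 in WT cells. In WT cells the calls of ACSL5, CRAT and EHHADH were lost without WT replicate 3 or any 1 of the WT libraries with H89. In S434A cells those of ACADM, ACADSB, CROT and EHHADH were lost without S434A replicate 2 or without replicate 2 or 3 of S434A with H89, and without S434A replicate 3 all 21 calls remained and 9 more genes passed.

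By place, the 17 mitochondrial genes had 10 lower and 2 higher with H89 in S434A cells, and 12 lower and 1 higher in WT cells. The 7 peroxisomal genes had 3 lower and 2 higher in S434A cells, and 3 lower and 1 higher in WT cells. Of all genes, 22.7% were called lower and 29.3% higher with H89 in S434A cells, and 30.9% and 38.8% in WT cells. The peroxisomal counts rest on few genes. The summed level of the mitochondrial genes was 2219.6 ± 20.0 CPM in S434A cells with H89, 2836 ± 69.6 in S434A cells without it, 2208 ± 40.2 in WT cells with H89 and 4124 ± 40.4 in WT cells without it (SD, n = 3 each). As shares of the WT level these were 53.8%, 68.8% and 53.5%. The peroxisomal sum was 483 ± 7.22, 534 ± 26.9, 471 ± 14.1 and 736 ± 7.85 CPM in the same groups, or 65.6%, 72.5% and 64.0% of the WT level. Both sums were highest in WT cells without H89 and did not overlap with the other groups. They rest on the TMM factors. As shares of raw counts the groups differed less: the mitochondrial genes held 0.240 to 0.242% in S434A cells with H89, 0.283 to 0.304% in S434A cells, 0.234 to 0.239% in WT cells with H89 and 0.345 to 0.346% in WT cells, and the peroxisomal genes 0.0510 to 0.0537%, 0.0509 to 0.0590%, 0.0495 to 0.0510% and 0.0614 to 0.0619% in the same order.

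Between the genotypes without H89, S434A cells had 16 of the 31 genes lower than WT cells and 5 higher, beside 29.3% and 29.0% of all genes. At 2-fold or more, 3 were lower and 0 higher (11.3% and 11.6% of all genes). The median log2 fold change was -0.36 over the 31 genes and -0.040 over all genes. The mitochondrial genes had 12 lower and 2 higher, 70.6% and 11.8% of them, and the peroxisomal genes 3 lower and 1 higher, 42.9% and 14.3%. This comparison shares the WT libraries with the H89 comparison in WT cells and the S434A libraries with that in S434A cells, so the values are set side by side below and no overlap is read from them. Without S434A replicate 1, 17 genes were lower and 5 higher, and 18 of the 21 calls remained. CPT2, ETFDH and ACOX3 no longer passed, and ACADM, ECHS1, EHHADH and PPARA did. Without S434A replicate 2, 15 of the 21 calls remained. Without WT replicate 1 or 3, 14 did, and those lost were ACADVL, ACADSB, CPT2, CROT, ETFDH, ACOX3 and HSD17B4 in both cases.

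With H89 in both arms, no gene of the list was called between the genotypes. In S434A cells with H89 against WT cells with H89, log2 fold changes lay between -0.10 for CPT2 and 0.19 for DECR1, with SE of 0.047 to 0.53. By edgeR's quasi-likelihood test 0 of the 31 genes passed in either direction, and 0 were at an unadjusted p under 0.05, where 0.0% of all genes passed and 589 of 14435 were under 0.05 unadjusted. DESeq2 and limma-voom also called 0 of the 31, and over all genes 2 and 0. The SE sets what could be seen: it was 0.53 for ACSL4 and 0.047 for HADHB. Each gene has a single estimate of spread over all 4 groups, so the SE also holds the spread of S434A cells without H89. With only the groups compared in the edgeR fit, 0 of the 31 genes and 0 of all genes passed. In that fit 1593 of 13917 genes were under 0.05 unadjusted.

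**Figure D2:**
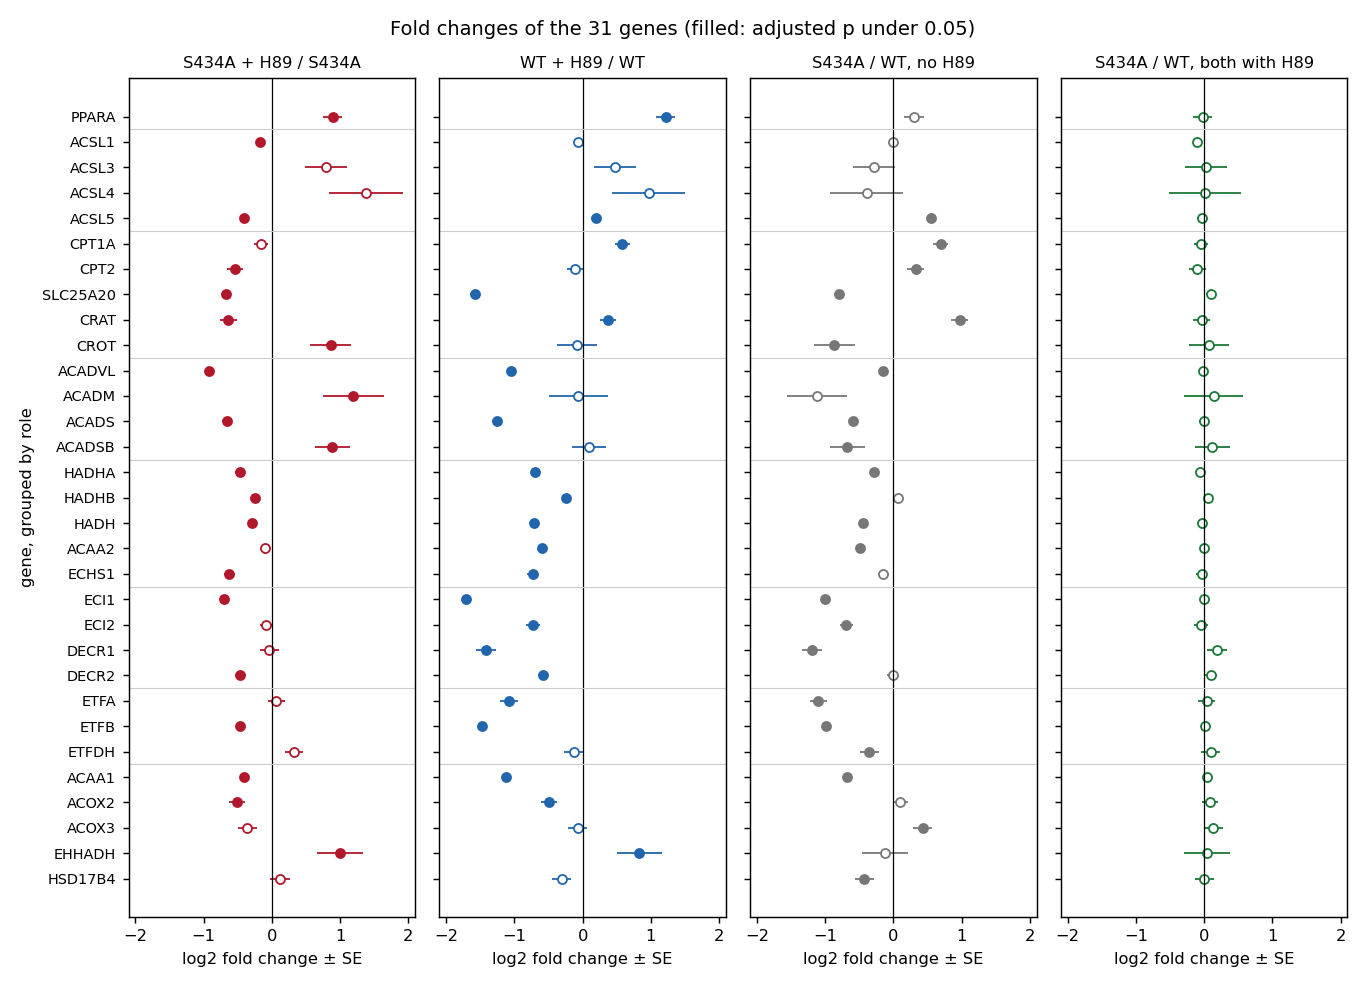
Points are log2 fold changes with their SE for the 31 genes, by role, in 4 comparisons, with filled points at an adjusted p under 0.05. With H89 against without, 16 genes are lower in S434A cells (first panel) and 16 in WT cells (second panel), and in the last panel, S434A against WT with H89, all values lie between -0.10 and 0.19.

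PPARA (ENSG00000186951.16_7, hg19 chromosome 22, 46546424 to 46639653, plus strand), the receptor that switches on fatty acid oxidation genes, rose with H89 in both genotypes. PPARA had 88.1, 90.6 and 86.6 CPM in S434A cells with H89, 35.8, 47.2 and 60.3 in S434A cells without it, 91.2, 85.9 and 92.6 in WT cells with H89 and 38.7, 40.0 and 37.5 in WT cells without it. The libraries with H89 were all above those without it, and S434A replicate 3 was the highest library without H89. The log2 fold change with H89 was 0.89 ± 0.14 in S434A cells (adjusted p = 8.73e-04) and 1.21 ± 0.14 in WT cells (adjusted p = 2.11e-05). With each library's GC and length trends removed it was 0.60 and 0.41, both still called. Without H89, PPARA was at 47.8 ± 12.2 CPM in S434A cells and 38.7 ± 1.22 CPM in WT cells (SD, n = 3 each), which did not pass (adjusted p = 0.0915). Without S434A replicate 1 it passed, at 0.47 (adjusted p = 3.83e-04), and with the trends removed the value was -0.19.

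The acyl-CoA synthetases, which activate long-chain fatty acids, did not move as a group. ACSL5 had 69.1, 65.9 and 65.1 CPM in S434A cells with H89, 85.3, 96.0 and 83.1 in S434A cells without it, 68.4, 68.1 and 68.7 in WT cells with H89 and 61.5, 60.8 and 57.6 in WT cells without it. S434A cells without H89 held the highest ACSL5 libraries and WT cells without H89 the lowest. ACSL5 was 0.56 ± 0.066 higher on the log2 scale in S434A than in WT cells without H89 (adjusted p = 3.56e-05), and fell with H89 in S434A cells at -0.40 ± 0.066 (adjusted p = 9.82e-04). The rise with H89 in WT cells, 0.19 ± 0.066, was 0.041 with RLE factors and no longer passed (adjusted p = 0.592). ACSL1 changed by -0.17 ± 0.056 in S434A cells with H89 (adjusted p = 0.0263). ACSL4 had 327, 408 and 358 CPM in S434A cells with H89, 26.3, 159 and 236 in S434A cells without it, 324, 319.6 and 439.7 in WT cells with H89 and 181, 179 and 193 in WT cells without it. Libraries with H89 were all above those without it for ACSL4, and S434A replicate 1 was far below the other libraries. ACSL4 and ACSL3, at 1.37 and 0.79 with H89 in S434A cells and 0.97 and 0.47 in WT cells, passed in neither genotype in the fit of all 4 groups. With only the groups compared in the fit, both passed as higher with H89 in WT cells. Without S434A replicate 1 the values in S434A cells were 0.88 and 0.43, and both passed (adjusted p = 4.26e-04 and 9.12e-04). With the trends removed, ACSL3 was -0.40 in S434A cells and -0.21 in WT cells and passed in the lower direction in both. ACSL4 then passed in neither genotype, nor in S434A cells with replicate 1 of S434A without H89 left out as well.

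In the promoters that RefSeq gives for 24 of the 31 genes (35 windows of 250 bases before to 50 after a start, GRCh38.p14), the PPARA-RXR element was searched as AGGTCA repeated after 1 spacer base, on both strands. An exact match was in 0 of the 35 windows and in 0.0228% of all 35116 windows, and up to 1 mismatch in 0 and in 0.336%. Up to 2 mismatches were found in 2 windows, 5.71%, against 2.97% of all windows. They are shown because PPARA rose in both genotypes while neither of their genes rose with H89: ACSL1, at 1 of its 5 starts, and ACAA2, with the 13 bases of the match in capitals.
ACSL1, chr4:184805630-184805692, minus strand: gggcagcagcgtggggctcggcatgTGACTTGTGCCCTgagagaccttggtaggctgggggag
ACAA2, chr18:49813572-49813634, minus strand: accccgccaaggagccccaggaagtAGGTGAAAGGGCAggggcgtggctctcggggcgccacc
The ACSL1 match reads on the opposite strand of the gene, centred 108 bases before the start, and the ACAA2 match on the gene's strand, 70 bases before. Peroxisomal genes known as PPARA targets in rodents, such as EHHADH, had no window in the table. A match is a description of letters and shows no binding.

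The carnitine shuttle split into genes that rose and genes that fell. CPT1A (ENSG00000110090.13_6, hg19 chromosome 11, 68522088 to 68611878, minus strand), the outer-membrane enzyme that sets the rate of entry, was higher in S434A than in WT cells without H89. CPT1A had 104, 104 and 98.8 CPM in S434A cells with H89, 132, 119 and 92.4 in S434A cells without it, 110.2, 109 and 98.4 in WT cells with H89 and 71.8, 69.3 and 71.0 in WT cells without it. The 3 WT libraries without H89 were below all 9 others. The log2 fold change was 0.69 ± 0.11 for S434A against WT without H89 (adjusted p = 2.38e-04) and 0.58 ± 0.11 for H89 in WT cells (adjusted p = 6.30e-04). In S434A cells H89 gave -0.16 ± 0.11 (adjusted p = 0.239), and the difference of the H89 effects, S434A minus WT, was -0.74 ± 0.15 (adjusted p = 0.00225). With the trends removed the first pair of values was 0.31 and 0.29, and both were called.

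CRAT, carnitine acetyltransferase, was likewise highest in S434A and lowest in WT cells without H89. CRAT had 75.8, 70.0 and 73.5 CPM in S434A cells with H89, 137, 117 and 88.7 in S434A cells without it, 76.2, 77.7 and 71.3 in WT cells with H89 and 57.9, 58.7 and 57.5 in WT cells without it. S434A cells without H89 were highest and WT cells without H89 lowest, with no overlap of those groups. CRAT was 0.98 ± 0.12 on the log2 scale in S434A against WT without H89 (adjusted p = 5.70e-05), -0.64 ± 0.12 for H89 in S434A cells (adjusted p = 0.00231) and 0.37 ± 0.12 for H89 in WT cells (adjusted p = 0.0199, but 0.117 with RLE factors). The carrier SLC25A20 (ENSG00000178537.10_6, hg19 chromosome 3, 48894359 to 48936337, minus strand), which takes acylcarnitines across the inner membrane, moved the other way. SLC25A20 had 23.6, 21.4 and 23.0 CPM in S434A cells with H89, 38.0, 34.2 and 36.2 in S434A cells without it, 20.6, 22.1 and 20.6 in WT cells with H89 and 61.9, 62.6 and 64.6 in WT cells without it. The groups without H89 stood apart from each other and above both groups with H89. Its log2 fold changes were -0.67 ± 0.071 for H89 in S434A cells, -1.58 ± 0.072 for H89 in WT cells and -0.80 ± 0.070 for S434A against WT without H89, with adjusted p of 7.38e-05, 1.32e-08 and 4.48e-06.

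CPT2, the inner-membrane partner of CPT1A, was a low gene. CPT2 had 14.3, 15.1 and 13.2 CPM in S434A cells with H89, 23.4, 21.2 and 17.4 in S434A cells without it, 14.5, 16.4 and 14.8 in WT cells with H89 and 15.3, 18.2 and 15.9 in WT cells without it. S434A libraries without H89 reached above the rest but overlapped with WT libraries. CPT2 fell with H89 in S434A cells, at -0.54 ± 0.12 (adjusted p = 0.00544). Its call in S434A against WT without H89, 0.33 ± 0.12 (adjusted p = 0.0404), was lost without S434A replicate 1 (adjusted p = 0.0960), and with the trends removed the value was -0.098. CROT had 7.45, 7.10 and 7.98 CPM in S434A cells with H89, 1.78, 4.49 and 6.13 in S434A cells without it, 7.41, 6.88 and 7.16 in WT cells with H89 and 7.16, 7.71 and 7.77 in WT cells without it. CROT, the peroxisomal carnitine octanoyltransferase, was called higher with H89 in S434A cells at 0.86 ± 0.30 (adjusted p = 0.0352) and lower in S434A than in WT cells without H89 at -0.87 ± 0.30 (adjusted p = 0.0294). Replicate 1 was the lowest of the S434A libraries, and without it the values were 0.50 and -0.50, both called. With the trends removed CROT was -0.22 and -0.18, called in neither.

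The acyl-CoA dehydrogenases, which open each mitochondrial cycle, did not move together. ACADVL (ENSG00000072778.20_5, hg19 chromosome 17, 7120444 to 7128585, plus strand), for very long chains, fell with H89 in both genotypes. ACADVL had 242, 237 and 228 CPM in S434A cells with H89, 477, 436 and 422 in S434A cells without it, 237, 233 and 247 in WT cells with H89 and 493, 493 and 492 in WT cells without it. Both groups with H89 sat near each other and well below both groups without it. The log2 fold change with H89 was -0.92 ± 0.057 in S434A cells (adjusted p = 6.81e-06) and -1.04 ± 0.057 in WT cells (adjusted p = 4.64e-08). Without H89, S434A was -0.15 ± 0.056 against WT (adjusted p = 0.0429). That call was lost without S434A replicate 2 or 3 or any 1 WT library, and with only those groups fitted the value was 0.063. ACADS, for short chains, fell too. ACADS had 58.9, 59.5 and 59.1 CPM in S434A cells with H89, 99.5, 86.8 and 94.3 in S434A cells without it, 60.6, 61.5 and 55.7 in WT cells with H89 and 148, 139 and 138 in WT cells without it. The groups without H89 did not overlap, and all libraries with H89 were below them. Its log2 fold changes were -0.66 ± 0.067 for H89 in S434A cells, -1.25 ± 0.068 for H89 in WT cells and -0.60 ± 0.067 for S434A against WT without H89, with adjusted p of 6.02e-05, 4.24e-08 and 2.33e-05.

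ACADM, for medium chains, and ACADSB, for short branched chains, are AT-rich messages (exon GC 40.4% and 40.1%), and their values in S434A cells without H89 were spread widely. ACADM had 41.7, 47.9 and 49.2 CPM in S434A cells with H89, 5.38, 23.2 and 32.0 in S434A cells without it, 36.4, 38.6 and 51.0 in WT cells with H89 and 43.5, 43.2 and 44.8 in WT cells without it. ACADSB had 139, 166 and 172 CPM in S434A cells with H89, 48.5, 88.6 and 121 in S434A cells without it, 133, 134 and 172 in WT cells with H89 and 137, 132 and 143 in WT cells without it. Replicate 1 of S434A without H89 was the lowest library for both. With H89 in S434A cells ACADM was 1.19 ± 0.45 (adjusted p = 0.0442) and ACADSB 0.89 ± 0.26 (adjusted p = 0.0157), both called as higher. In WT cells the values were -0.062 ± 0.43 and 0.094 ± 0.25, and neither passed. Without S434A replicate 1 the values in S434A cells were 0.74 and 0.60, still called. With the GC and length trends removed ACADM was 0.30 and did not pass (adjusted p = 0.169), and ACADSB was -0.30 and passed in the lower direction (adjusted p = 0.0297).

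The enzymes of the later mitochondrial steps fell with H89 in most cases. ECHS1 (enoyl-CoA hydratase), HADH (hydroxyacyl-CoA dehydrogenase), HADHA and HADHB (the subunits of the trifunctional protein) and ACAA2 (thiolase) were all called lower in WT cells, at -0.73, -0.71, -0.70, -0.24 and -0.60. In S434A cells H89 gave -0.62, -0.30, -0.47 and -0.25, all called, and -0.11 for ACAA2, which was not (adjusted p = 0.127). With the trends removed the calls of ECHS1 and HADHB in WT cells were lost, and ACAA2 passed as lower in S434A cells. Without H89, HADH, HADHA and ACAA2 were lower in S434A than in WT cells, at -0.44, -0.29 and -0.48. ECHS1 and HADHB did not pass there, at -0.15 and 0.061. In this comparison the call of ACAA2 was lost with the trends removed, and that of HADHA with only the groups compared in the fit. HADHB passed under both settings. HADHA had 386, 371 and 362 CPM in S434A cells with H89, 562, 498 and 494 in S434A cells without it, 399, 389.9 and 378 in WT cells with H89 and 618, 644 and 636 in WT cells without it. HADHA was highest in WT cells without H89, next in S434A cells without it, and lowest in both groups with H89. HADHB differed little between groups by comparison, with means of 181 ± 4.18, 215 ± 5.51, 174 ± 2.48 and 206 ± 3.33 CPM (SD, n = 3) in S434A with H89, S434A, WT with H89 and WT cells.

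HADHA and HADHB lie head to head on chromosome 2, with RefSeq starts 307 bases apart (GRCh38.p14), and their log2 fold changes with H89 in WT cells were -0.70 ± 0.060 and -0.24 ± 0.047. The stretch that lies between both starts and in both windows, 194 bases, is shown because the pair share it upstream. Capitals mark its 14 CG pairs, and its GC content is 68.6%.
HADHA-HADHB, chr2:26244689-26244882, plus strand: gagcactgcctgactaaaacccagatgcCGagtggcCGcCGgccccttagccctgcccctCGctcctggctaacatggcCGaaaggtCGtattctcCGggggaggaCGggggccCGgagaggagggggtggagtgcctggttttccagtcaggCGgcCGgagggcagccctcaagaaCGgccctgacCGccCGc
In the hg19 annotation of the counts the spans of the pair overlap by 1503 bases, and counting used no strand option, so reads there cannot be told apart.

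The isomerases and dienoyl-CoA reductases handle unsaturated fatty acids. ECI1 (ENSG00000167969.13_8, hg19 chromosome 16, 2289403 to 2302301, minus strand), the mitochondrial enoyl-CoA isomerase, fell with H89 in both genotypes and was lower in S434A than in WT cells without it. ECI1 had 96.5, 94.1 and 94.9 CPM in S434A cells with H89, 159, 146 and 161 in S434A cells without it, 97.4, 92.6 and 96.6 in WT cells with H89 and 313, 314 and 306 in WT cells without it. No library overlapped between the groups without H89, and both groups with H89 lay together below them. The log2 fold change with H89 was -0.71 ± 0.053 in S434A cells (adjusted p = 1.36e-05) and -1.70 ± 0.054 in WT cells (adjusted p = 4.41e-09). S434A against WT without H89 gave -1.001 ± 0.053 (adjusted p = 3.99e-07). With the trends removed these were -0.42, -1.91 and -1.49, all called.

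DECR1, the mitochondrial dienoyl-CoA reductase, was lower in S434A than in WT cells without H89. DECR1 had 43.7, 43.1 and 41.8 CPM in S434A cells with H89, 34.1, 40.9 and 57.0 in S434A cells without it, 37.6, 36.5 and 39.0 in WT cells with H89 and 103, 98.7 and 99.8 in WT cells without it. WT cells without H89 were above all other libraries. DECR1 was -1.19 ± 0.15 for S434A against WT without H89 (adjusted p = 4.08e-05) and -1.42 ± 0.15 for H89 in WT cells (adjusted p = 7.14e-06). H89 in S434A cells gave -0.037 ± 0.14 (adjusted p = 0.847), and with the trends removed -0.87 (adjusted p = 9.64e-05). DECR2, its peroxisomal counterpart, was called lower with H89 in both genotypes, at -0.46 in S434A cells and -0.58 in WT cells, and was -0.013 between genotypes without H89. With the trends removed the call of DECR2 in S434A cells was lost, and it passed between genotypes without H89. ECI2, found in both organelles, was -0.69 for S434A against WT and -0.73 for H89 in WT cells, both called, and -0.081 for H89 in S434A cells, which did not pass.

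Both subunits of electron transfer flavoprotein fell with H89 in WT cells, while the message of its dehydrogenase gave smaller values. ETFB (ENSG00000105379.10_6, hg19 chromosome 19, 51848423 to 51869642, minus strand), the beta subunit, was among the genes with the most read counts of the list. ETFB had 333, 333 and 316 CPM in S434A cells with H89, 452, 432 and 469 in S434A cells without it, 337, 316 and 319 in WT cells with H89 and 895, 928 and 871 in WT cells without it. The 4 groups fell into 3 levels, with WT cells without H89 highest, S434A cells without H89 between, and both groups with H89 lowest. Its log2 fold changes were -0.46 ± 0.053 for H89 in S434A cells, -1.47 ± 0.054 for H89 in WT cells and -0.99 ± 0.054 for S434A against WT without H89, with adjusted p of 1.20e-04, 5.16e-09 and 3.99e-07. ETFA, the alpha subunit, was -1.08 for H89 in WT cells and -1.10 for S434A against WT without H89, both called. For H89 in S434A cells ETFA was 0.062 and did not pass, and -0.63 with the trends removed, which did. ETFDH, the ubiquinone oxidoreductase, was 0.32 and -0.13 with H89 in S434A and WT cells, called in neither, and -0.36 for S434A against WT without H89 (adjusted p = 0.0455), a call lost without S434A replicate 1 (adjusted p = 0.113).

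**Figure D3:**
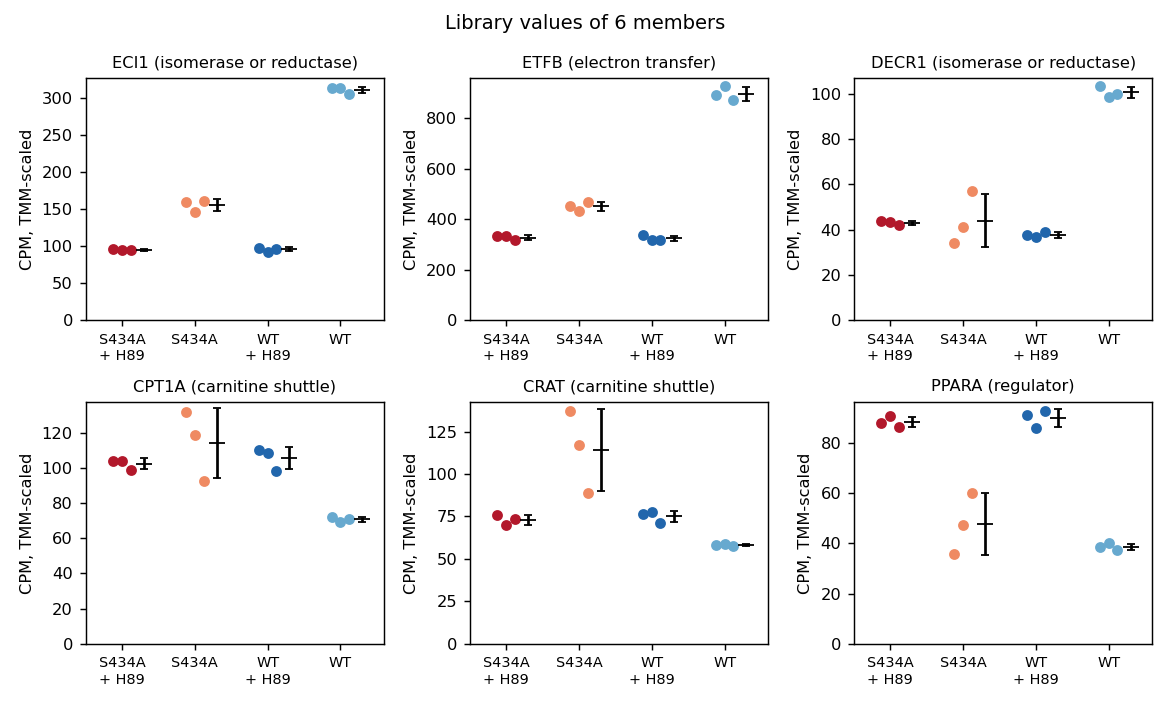
TMM-scaled CPM of 6 genes in each library (points) with the mean and SD of each group (black, n = 3). ECI1, ETFB and DECR1 are highest in WT cells without H89, CPT1A and CRAT are lowest there, and PPARA is at 85.9 CPM or more in the 6 libraries with H89 and at 60.3 CPM or less in the others.

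In the peroxisome, ACAA1 (ENSG00000060971.19_7, hg19 chromosome 3, 38144620 to 38178733, minus strand), the thiolase, fell with H89 in both genotypes. ACAA1 had 184, 174 and 189.8 CPM in S434A cells with H89, 257, 232 and 237 in S434A cells without it, 181, 178 and 174 in WT cells with H89 and 388, 396 and 380.4 in WT cells without it. Libraries of the groups without H89 did not overlap, and those with H89 were lowest. The log2 fold changes were -0.40 ± 0.056 for H89 in S434A cells, -1.13 ± 0.056 for H89 in WT cells and -0.68 ± 0.056 for S434A against WT without H89, with adjusted p of 3.48e-04, 2.57e-08 and 2.81e-06. EHHADH, the peroxisomal bifunctional enzyme, went the other way. EHHADH had 34.2, 32.4 and 33.7 CPM in S434A cells with H89, 6.40, 20.4 and 23.2 in S434A cells without it, 31.1, 31.7 and 34.6 in WT cells with H89 and 17.99, 18.1 and 18.5 in WT cells without it. All libraries with H89 were above all without it, and S434A replicate 1 was the lowest library. EHHADH was called higher with H89 in S434A cells at 1.001 ± 0.34 (adjusted p = 0.0299) and in WT cells at 0.83 ± 0.33 (adjusted p = 0.0452, but 0.0969 with RLE factors). Without S434A replicate 1 the value in S434A cells was 0.61 (adjusted p = 5.92e-05).

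Of the acyl-CoA oxidases on the list, ACOX2, which acts on branched chains and bile acid intermediates, fell with H89 at -0.51 ± 0.11 in S434A cells and -0.49 ± 0.11 in WT cells (adjusted p = 0.00496 and 0.00268). ACOX3 had 16.7, 16.5 and 16.7 CPM in S434A cells with H89, 25.7, 22.1 and 16.3 in S434A cells without it, 15.4, 15.7 and 14.3 in WT cells with H89 and 16.1, 16.4 and 15.3 in WT cells without it. ACOX3, for branched chains, was spread most in S434A cells without H89, whose lowest library lay among the WT libraries. Its call, 0.43 ± 0.14 in S434A against WT without H89 (adjusted p = 0.0219), was lost without S434A replicate 1 (adjusted p = 0.0534). HSD17B4, the other bifunctional enzyme, was -0.43 ± 0.14 for S434A against WT without H89 (adjusted p = 0.0229) and passed in neither H89 comparison, at 0.12 in S434A cells and -0.31 in WT cells. With the trends removed HSD17B4 was -1.18 and -1.31 and passed in both.

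Among the 24 genes with a promoter window, ACOX3 alone held the full cAMP response element, the site bound by the PKA target CREB. TGACGTCA was in 2 of the 35 windows, 5.71%, against 1.85% of all windows, and the half-site TGACG on either strand in 9 of 35, 25.7%, against 24.6%. Both full matches were at the ACOX3 starts, and this search was chosen after the values were seen. They are shown with the element in capitals, since H89 acts on PKA.
ACOX3 start 1, chr4:8428494-8428544, minus strand: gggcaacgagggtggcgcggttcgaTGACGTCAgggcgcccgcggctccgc
ACOX3 start 2, chr4:8440729-8440779, minus strand: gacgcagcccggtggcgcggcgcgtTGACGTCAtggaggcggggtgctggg
The element lies 67 and 27 bases before the starts. ACOX3 was -0.36 ± 0.14 with H89 in S434A cells (adjusted p = 0.0503) and -0.070 ± 0.14 in WT cells (adjusted p = 0.671), called in neither.

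The H89 effect differed between genotypes for 14 of the 31 genes by the test of the difference, S434A minus WT: 11 higher and 3 lower, where 24.0% of all genes were called in each direction. The median difference was 0.41 on the log2 scale over the 31 genes and 0.066 over all genes. ETFB, ECI1 and ACAA1, which fell more with H89 in WT than in S434A cells, had differences of 1.01 ± 0.075, 0.99 ± 0.075 and 0.72 ± 0.079 (adjusted p = 7.46e-06, 7.80e-06 and 4.51e-05). ACSL5, CRAT and CPT1A had differences of -0.59 ± 0.094, -1.01 ± 0.18 and -0.74 ± 0.15 (adjusted p = 4.27e-04, 7.54e-04 and 0.00225). Since values between genotypes were small with H89, a difference here has about the size of the S434A against WT value without H89 and the opposite sign, and both share their libraries. Without S434A replicate 1 all 14 calls remained, with 14 genes higher and 4 lower. With the GC and length trends removed 12 were higher and 4 lower, where 24.9% and 25.1% of all genes were called.

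Over the 31 genes, the log2 fold change with H89 followed the GC content of the message in S434A cells, with a Spearman correlation of -0.85 (n = 31 genes, which share libraries and base composition), against -0.41 in WT cells, and it was 0.31 for S434A against WT without H89. GC content and length accounted for 55.8%, 24.98% and 38.3% of the variance of log2 fold changes over all genes in those comparisons. With each library's trends removed, the correlations were 0.064, -0.19 and -0.21. The genes then lower and higher were 22 and 2 for H89 in S434A cells (22.9% and 20.8% of all genes), 20 and 5 for H89 in WT cells (35.3% and 38.6%), and 13 and 6 for S434A against WT without H89 (29.9% and 30.4%). Of the 21 calls in each comparison, 17, 19 and 15 were kept in the same direction. The falls of ECI1, ETFB, SLC25A20, ACAA1, ACADS, ACADVL and HADHA with H89 in both genotypes were among those kept, and the rises of ACADM, ACADSB and CROT in S434A cells were not.

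**Figure D4:**
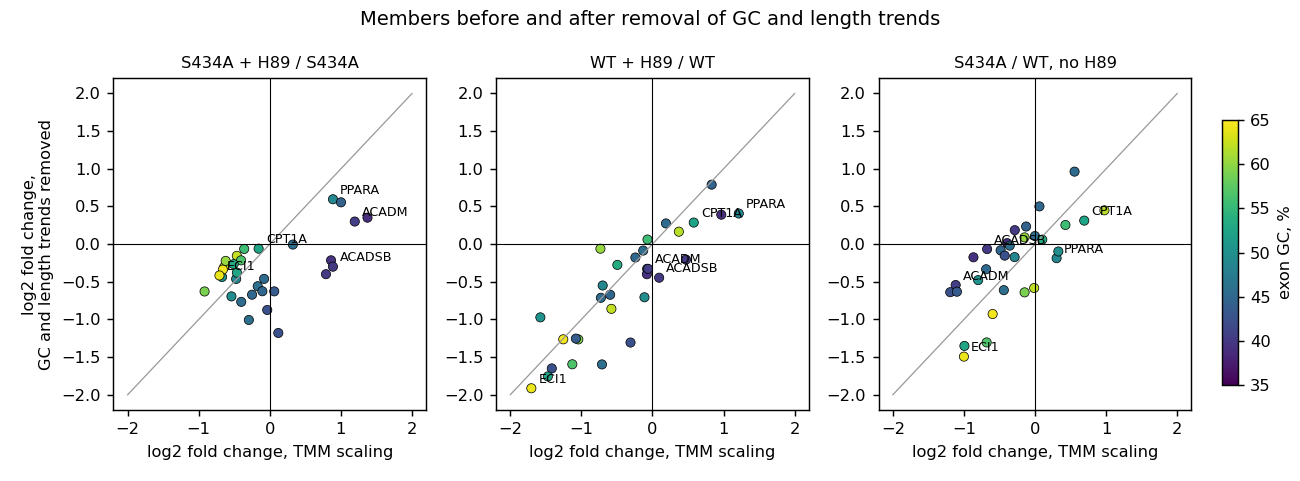
Each point is a gene, with its log2 fold change under TMM scaling on the x axis and with GC and length trends removed on the y axis, coloured by exon GC content, and the grey line marks equal values. In S434A cells with H89 (left) the AT-rich genes ACADM and ACADSB move to 0.30 and -0.30, while ECI1 remains negative in all 3 panels.

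As TPM, which divides by gene length and allows genes to be compared within a group, ECHS1 and HADHA led in all 4 groups. ECHS1 was at 316 ± 22.2 TPM in S434A cells with H89, 446 ± 32.3 in S434A cells, 325 ± 14.7 in WT cells with H89 and 366 ± 3.48 in WT cells (SD, n = 3 each). HADHA was at 287 ± 8.503, 367 ± 7.05, 301 ± 13.98 and 331 ± 6.87 TPM in the same groups. In WT cells ETFB followed at 313 ± 6.64 TPM, then ACADVL at 232 ± 1.99, ETFA at 230.2 ± 2.59 and ECI1 at 220.1 ± 1.29, and ACADVL and ETFA lay within their spread of each other. With H89, ACSL4 had the third highest mean, at 185 ± 20.2 TPM in S434A cells and 184 ± 31.6 in WT cells. ETFB, at 168 ± 4.11 and 167 ± 8.77 TPM there, lay within the spread of ACSL4, so their order is not settled. The lowest were CROT and CPT2, at 5.02 ± 0.324 and 4.69 ± 0.291 TPM in S434A cells with H89, 2.59 ± 1.45 and 6.27 ± 0.680 in S434A cells, 4.79 ± 0.240 and 5.05 ± 0.333 in WT cells with H89, and 3.43 ± 0.160 and 3.697 ± 0.312 in WT cells. TPM carries no TMM factor, and for several genes the direction differed from the TMM scale. HADHB and ACOX2 were at 136 ± 2.37 and 25.6 ± 0.620 TPM in WT cells with H89 and 109 ± 0.676 and 24.4 ± 0.538 in WT cells, but fell on the TMM scale. ACADVL was at 283 ± 4.91 TPM in S434A cells without H89. It and HADHA were thus higher there than in WT cells as TPM, but were called lower on the TMM scale. HADH, also called lower there on the TMM scale, was at 20.1 ± 1.02 TPM, against 20.1 ± 0.483 in WT cells. ACAA2, likewise called lower, was at 77.7 ± 0.858 TPM, against 80.3 ± 1.43 in WT cells. ECI1 and ETFB kept their direction, at 149 and 213 TPM in S434A cells without H89.

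Genes of ketone body synthesis and use had more calls lower than higher. Of the 7 tested of 8 listed, 3 were lower and 1 higher with H89 in S434A cells, 4 lower and 0 higher with H89 in WT cells, and 5 lower and 1 higher in S434A against WT without H89. Their medians were 0.22, -1.06 and -0.70 on the log2 scale, so that with H89 in S434A cells the median had the opposite sign of the count. Lower and higher calls made up 42.9% and 14.3%, 57.1% and 0.0%, and 71.4% and 14.3% of the 7 in those comparisons, beside 22.7% and 29.3%, 30.9% and 38.8%, and 29.3% and 29.0% of all genes. Once the trends were removed 5 were lower and 0 higher with H89 in S434A cells, with a median of -0.53, 6 lower and 0 higher with H89 in WT cells, and 5 lower and 0 higher in S434A against WT without H89. Lower and higher calls over all genes were then 22.9% and 20.8%, 35.3% and 38.6%, and 29.9% and 30.4%. BDH1, which forms 3-hydroxybutyrate, was at 39.8 ± 1.12 CPM in S434A cells with H89 and 62.9 ± 4.35 CPM in S434A cells, and at 38.0 ± 0.966 CPM in WT cells with H89 and 85.5 ± 4.10 CPM in WT cells (SD, n = 3 each). Its log2 fold change with H89 was -0.66 ± 0.069 in S434A cells (adjusted p = 6.77e-05) and -1.17 ± 0.069 in WT cells (adjusted p = 8.28e-08). ACAT1, the mitochondrial acetoacetyl-CoA thiolase, and BDH2, a cytosolic dehydrogenase, were -1.26 ± 0.15 and -1.96 ± 0.24 for S434A against WT without H89, and -1.06 ± 0.15 and -1.72 ± 0.23 for H89 in WT cells. AACS, which activates acetoacetate in the cytosol, fell with H89 in S434A cells at -0.36 ± 0.11, and the carrier SLC16A1 rose there at 0.86 ± 0.29 (adjusted p = 0.0282). SLC16A1 was 0.45 with the trends removed and no longer passed (adjusted p = 0.0645).

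PPARA partners and targets moved in both directions. Of 17 tested of 19 listed, 5 were higher and 3 lower with H89 in S434A cells, 10 higher and 2 lower with H89 in WT cells, and 8 higher and 3 lower in S434A against WT without H89. Their medians were 0.18, 1.26 and 0.64 on the log2 scale, where those of all genes were 0.014, 0.20 and -0.040. With H89 in S434A cells the share called higher, 29.4%, was at the 29.3% of all genes. It was 58.8% with H89 in WT cells and 47.1% in S434A against WT without H89, beside 38.8% and 29.0% of all genes. Lower calls made up 17.6%, 11.8% and 17.6% in the 3 comparisons, beside 22.7%, 30.9% and 29.3%. After removal of the trends 10 were higher and 3 lower with H89 in S434A cells, 12 and 3 in WT cells, and 7 and 3 in S434A against WT without H89. Higher and lower calls then made up 20.8% and 22.9%, 38.6% and 35.3%, and 30.4% and 29.9% of all genes. FABP1, the liver fatty acid-binding protein and a PPARA target, was called lower in all 3 comparisons. FABP1 was at 483 ± 8.17 CPM in S434A cells with H89, 630.1 ± 80.8 CPM in S434A cells, 427 ± 3.69 CPM in WT cells with H89 and 1752 ± 45.0 CPM in WT cells (SD, n = 3 each). It changed by -0.38 ± 0.077 with H89 in S434A cells, -2.04 ± 0.080 in WT cells and -1.47 ± 0.078 in S434A against WT without H89, with adjusted p of 0.00274, 6.12e-09 and 3.99e-07. RXRA, the partner of PPARA on DNA, was 1.27 ± 0.13 with H89 in WT cells and 1.09 ± 0.13 in S434A against WT without H89, and the second value was -0.076 with the trends removed. CREB3L3, a liver factor of the fasting response, rose with H89 in WT cells at 0.96 ± 0.091 and was higher in S434A than in WT cells without H89 at 0.87 ± 0.091. PPARD was 1.19 ± 0.16 in that comparison. HILPDA, a lipid droplet protein, fell with H89 in both genotypes, at -0.74 ± 0.13 in S434A cells and -1.50 ± 0.13 in WT cells. The coregulators NCOA1 and NCOR1 rose with H89 in S434A cells, at 1.24 ± 0.22 and 1.34 ± 0.26.

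Further oxidation genes moved in both directions. Of 21 tested of 24 listed, 6 were lower and 5 higher with H89 in S434A cells, 7 lower and 10 higher with H89 in WT cells, and 6 lower and 6 higher in S434A against WT without H89. The medians were 0.035, 0.11 and -0.26. Lower and higher calls made up 28.6% and 23.8%, 33.3% and 47.6%, and 28.6% and 28.6% of the 21. Of all genes they made up 22.7% and 29.3%, 30.9% and 38.8%, and 29.3% and 29.0%. The last pair and the lower share with H89 in WT cells were near those of all genes. The medians were -0.11, -0.0093 and 0.11 with the trends removed, each of the opposite sign. PECR, the peroxisomal enoyl-CoA reductase, was -0.56 ± 0.089, -1.86 ± 0.092 and -1.27 ± 0.090 in those comparisons, and SLC27A5, the bile acid and very long chain acyl-CoA synthetase, -0.56 ± 0.096, -1.73 ± 0.097 and -1.01 ± 0.095, all called. ACAD9 fell with H89 at -0.77 ± 0.091 in S434A cells and -1.40 ± 0.091 in WT cells, and PHYH, of phytanic acid oxidation, at -1.02 ± 0.091 in WT cells. NUDT19, a peroxisomal hydrolase of coenzyme A, was higher in S434A than in WT cells without H89 at 1.27 ± 0.16. ACBD5, a peroxisomal acyl-CoA binding protein, rose with H89 in S434A cells at 1.59 ± 0.28.

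Peroxisome biogenesis genes had more calls lower than higher. Of 14 tested of 15 listed, 5 were lower and 3 higher with H89 in S434A cells, 6 lower and 2 higher with H89 in WT cells, and 7 lower and 3 higher in S434A against WT without H89. The medians were 0.028, -0.15 and -0.36, the first of them against the count. Lower and higher calls made up 35.7% and 21.4% and 42.9% and 14.3% of the 14 with H89 in S434A and WT cells, beside the shares of all genes given for the ketone body genes. After removal of the trends 5 were lower and 4 higher, 7 and 4, and 8 and 3, with medians of 0.0010, -0.19 and -0.27. Lower and higher calls then made up 22.9% and 20.8%, 35.3% and 38.6%, and 29.9% and 30.4% of all genes. PEX19 and PEX16, which place proteins in the peroxisome membrane, were -0.44 ± 0.071 and -0.51 ± 0.087 with H89 in S434A cells, -1.01 ± 0.071 and -1.10 ± 0.087 in WT cells, and -0.51 ± 0.070 and -0.59 ± 0.086 in S434A against WT without H89. PEX10, of the ubiquitin ligase complex, fell with H89 at -0.75 ± 0.12 in S434A cells and -1.31 ± 0.12 in WT cells, and PEX6 at -0.71 ± 0.11 in S434A cells. PEX2 and PEX13 were lower in S434A than in WT cells without H89, at -1.64 ± 0.28 and -1.10 ± 0.21.

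With H89 in both arms, 0 genes of the 4 neighbouring lists were called by edgeR's quasi-likelihood test in S434A against WT cells. Among genes with the highest levels, the log2 fold change was 0.18 ± 0.077 for FABP1, 0.14 ± 0.059 for PLIN2, 0.086 ± 0.28 for SLC16A1, 0.10 ± 0.14 for ACAT1, 0.025 ± 0.089 for PECR, -0.00099 ± 0.073 for PEX26 and -0.016 ± 0.092 for PEX5. At an unadjusted p under 0.05 there were 0, 2, 2 and 0 genes in the ketone body, other oxidation, PPARA and peroxisome biogenesis lists.

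**Figure D5:**
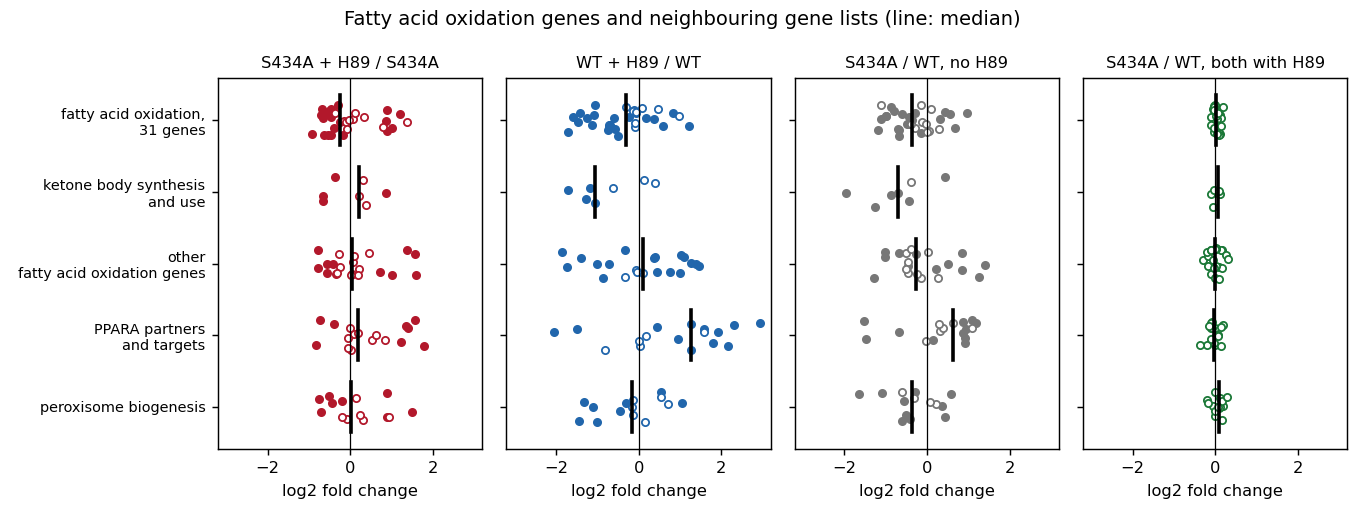
Log2 fold changes of the 31 genes and of the tested genes of 4 neighbouring lists in 4 comparisons, with filled points at an adjusted p under 0.05 and the median as a black line. The PPARA list has the highest median with H89 in WT cells, 1.26, and the ketone body list the lowest, -1.06.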

How the data were processed

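Counts of read pairs per gene were used as deposited: the authors counted over exons with featureCounts 2.0.1 and no strand option, per the file headers, after alignment with Bowtie 0.12.2 to hg19, per the submitters' processing notes. Gene lengths and positions are those of the deposited table. The sources used here name no trimming step, library kit or sequencing batch.

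A single model of the 12 libraries was fitted in R 4.3.3 (edgeR 4.0.16, TMM scaling). Genes passed filterByExpr at a minimum count of 10, and robust quasi-likelihood p-values were adjusted over the 14435 that did (Benjamini-Hochberg). SE is the size of the log2 fold change over the square root of F. Members and lists were chosen with earlier results of these data known. CPT1A, PPARA and, per comparison, the 5 members with the smallest p in each direction among those called are given in every library (the 3 smallest for the difference); of each other list, up to 4 genes with the smallest p. HADHA, DECR1 and ACSL4 are also given in every library, chosen after their values were seen. GC content came from GENCODE transcripts for 14280 tested genes, and trends were removed with splines of 5 degrees of freedom on GC content and length and their product, as offsets. Sequences are from RefSeq (GRCh38.p14), and no coordinate was converted. The main fit was tested on simulated counts with known changes. These had the same spread in every group and no GC or length trend, so they do not cover the unequal spread and trends of these libraries. Other settings tried were scaling by RLE or by the upper quartile, limma-voom (limma 3.58.1), DESeq2 1.42.0, no or another filter, a fit to the compared groups alone, a replicate block, trend removal, and each library left out. The labels state no pairing, and same-numbered libraries correlated at -0.15 to 0.47 in their deviations from group means, so no block was used. Some genes of the neighbouring lists are counted but not reported here by name. Of the endothelial markers, PECAM1 was not matched to the table.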

Additional observations from a re-analysis of the deposited data

Results flagged for a closer look

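The H89 effect differed between S434A and WT cells by the test of the difference itself for 14 of the 31 fatty acid oxidation genes. On the log2 scale, S434A minus WT, the difference was 1.38 for DECR1, 1.14 for ETFA, 1.01 for ETFB, 0.99 for ECI1, 0.90 for SLC25A20, 0.72 for ACAA1, 0.64 for ECI2, 0.59 for ACADS, 0.49 for ACAA2, 0.41 for HADH and 0.23 for HADHA. It was -1.01 for CRAT, -0.74 for CPT1A and -0.59 for ACSL5. In ketone body genes it was 1.93 for BDH2, 1.37 for ACAT1 and 0.51 for BDH1. Among other oxidation genes it was 1.30 for PECR, 1.17 for SLC27A5 and -1.38 for NUDT19. Among PPARA partners and targets it was 1.65 for FABP1, -1.01 for CREB3L3, -1.17 for RXRA and -1.28 for PPARD, and among peroxisome biogenesis genes 1.74 for PEX2, 0.59 for PEX16 and 0.57 for PEX19. Of the 14 members, 12 kept their call under all 22 alternatives of this comparison, and HADHA and ACAA2 did not. The libraries of S434A without H89, which stood apart, enter every one of these differences, and their part in them was not tested. With the GC and length trends removed RXRA was 0.062.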

How the results depend on the processing

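Of the calls for the 31 genes, 12 of 21 for S434A against WT without H89, 16 of 21 for H89 in WT cells, 11 of 21 for H89 in S434A cells and 12 of 14 for the difference held under every alternative run. Leaving out a replicate gave 3 to 6 higher and 11 to 17 lower for S434A against WT without H89, 2 to 3 and 16 to 18 for H89 in WT cells, 1 to 11 and 16 to 19 for H89 in S434A cells, 10 to 16 and 3 to 5 for the difference, and 0 for S434A against WT with H89. Genes higher with H89 in WT cells numbered 2 with RLE factors, upper-quartile factors, DESeq2 and no filter, against 5. Genes higher with H89 in S434A cells numbered 3 with RLE or upper-quartile factors, 1 with no filter or only the groups compared, and 2 with the trends removed, with or without S434A replicate 1, against 5. For S434A against WT without H89, 3 were higher with no filter and 10 lower with only the groups compared. For H89 in WT cells, a fit of only the groups compared added 7 calls and lost that of ACSL5. The added genes were ACOX3, ACSL1, ACSL3, ACSL4, CPT2, ETFDH and HSD17B4. With the replicate block 8 were higher with H89 in S434A cells; with the block and the trends removed 1 was, and 5 differed in the lower direction, against 6 with the trends removed and S434A replicate 1 left out. The numbers did not pair the libraries.

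With the trends removed, with the block added, and with S434A replicate 1 also left out, these values turned their sign: for S434A against WT without H89, CPT2 at -0.098, -0.100 and -0.19, ACSL3 at 0.19, 0.18 and 0.16, and RXRA at -0.076, -0.077 and -0.034; for H89 in S434A cells, ACADSB at -0.30, -0.30 and -0.14, ETFA at -0.63, -0.62 and -0.51, HSD17B4 at -1.18, -1.15 and -0.88, ACSL3 at -0.40, -0.40 and -0.37, and CROT at -0.22, -0.23 and -0.22; for the difference, RXRA at 0.062, 0.063 and 0.018. In the first and second of these settings ACADSB was -0.45 and -0.45 and ACSL3 -0.21 and -0.21 for H89 in WT cells, and for the difference ACSL3 was -0.19 with the block. In the third, EHHADH was 0.49 and ACSL4 0.28 for S434A against WT without H89, and -0.50 and -0.30 for the difference. With only the groups compared, ACADVL was 0.063 and ACSL1 0.21 for S434A against WT without H89. Leaving out a library, EHHADH ran from -0.44 to 0.26 there, the highest without S434A replicate 1, and DECR1 ran from -0.21 to 0.19 for H89 in S434A cells, the highest without S434A replicate 3. The cause was not tested. With 3 libraries a group, wide spread in S434A cells without H89 limits what can be seen for AT-rich genes.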
